A study of Mus musculus with 6 samples.

Results

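The 10 genes described here are the textbook NF-kB targets Ccl2, Ccl7, Cxcl1, Il6, Lif, Saa3, Vcam1, Icam1, Nfkbia and Tnfaip3, chosen by name out of 35688 gene rows of a mouse RNA-seq table. They were chosen with earlier results of these data known. Each symbol had 1 row. Poly(A)-selected RNA came from the cell line m1102, of the mouse ovarian surface epithelium, the single sheet of cells around the ovary. All libraries came from this single line, grown in medium with serum, ITSS and EGF: 3 were from untreated cells and 3 from cells that had received 10 ng/mL of the cytokine TGFB1 for 4 days before RNA extraction. The labels do not say whether the 3 samples of a group were separate cultures, so the spread behind every p-value may be technical. For the untreated cells no day is given, so whether their time in culture matched is unknown. Abundances are the authors' deposited values on the TPM scale, a share of all transcripts corrected for their length, and are called TPM below. Read counts are not part of the table, so library depth is unknown and counting error cannot be stated.

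NF-kB is a family of transcription factor dimers held in the cytoplasm by IkB proteins. Signals such as TNF, interleukin 1 and bacterial products activate kinases that mark IkB for destruction, and the freed dimers enter the nucleus and switch on genes for cytokines, chemokines and adhesion molecules. They also switch on their own brakes, among them Nfkbia, which encodes IkB-alpha, and Tnfaip3, which encodes the ubiquitin-editing enzyme A20. In epithelia and mesothelia the chemokines and adhesion molecules are known for drawing leukocytes to injured tissue.

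After 4 days of TGFB1 the 10 genes did not move as a block. Ccl2, Ccl7, Lif, Saa3, Vcam1 and Nfkbia fell, Tnfaip3 rose, Il6 was higher in all 3 treated libraries without passing the test, and Cxcl1 and Icam1 were near 0 in both groups. Of the 8 genes abundant enough to test (averaging 1 TPM or more across the 6 libraries), 6 were called lower and 1 higher (limma on log2(TPM + 1), Benjamini-Hochberg adjusted p under 0.05 over all 12257 tested genes). Of all tested genes 14.6% were called lower and 15.8% higher, together 30.4%. These were 1788 and 1937 genes, and once each library was rescaled to leave out mitochondrial genes and the 20 most abundant, the numbers became 1411 and 2376 of 12431 genes, with 5 of the 8 called lower and 1 higher. The median log2 fold change of the 8 was -1.03, beside 0.0152 for all tested genes. Since the genes were chosen with earlier results of these data known, these comparisons describe them and test nothing. Il6 passed the abundance filter only through the treated libraries, so it had to differ to be among the 8.

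Stretches of DNA just before a RefSeq start of 6 of these genes are shown because they hold the short sequence that NF-kB is known to bind, and because genes with such a match went in both directions. RefSeq's table of promoters on GRCm38.p6 had an entry for 7 of the 10 genes, with none for Ccl2, Ccl7 and Vcam1. In the 250 bases before the start, GGNNNTTCC was searched on both strands, along with the longer degenerate NF-kB consensus GGGRNWYYCC. Here N is any base, R is A or G, W is A or T and Y is C or T. Matches to both patterns can share bases, but GGGACACCCC in Tnfaip3 matches the longer one only. The runs below are 5′ to 3′ on the gene's strand, with 15 bases on each side of the outermost matches where the window allows, and capitals mark the matches.
Il6: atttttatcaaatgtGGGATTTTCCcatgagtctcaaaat
Tnfaip3: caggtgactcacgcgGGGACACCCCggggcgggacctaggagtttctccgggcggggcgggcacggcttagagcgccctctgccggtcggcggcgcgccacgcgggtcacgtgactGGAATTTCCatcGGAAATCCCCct
Nfkbia: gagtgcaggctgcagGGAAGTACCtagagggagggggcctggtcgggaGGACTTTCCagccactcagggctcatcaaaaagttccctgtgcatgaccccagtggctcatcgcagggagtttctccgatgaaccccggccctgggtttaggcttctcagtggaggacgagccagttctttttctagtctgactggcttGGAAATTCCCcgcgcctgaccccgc
Saa3: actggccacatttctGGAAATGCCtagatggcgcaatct
Cxcl1: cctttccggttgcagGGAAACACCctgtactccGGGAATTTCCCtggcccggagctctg
Icam1: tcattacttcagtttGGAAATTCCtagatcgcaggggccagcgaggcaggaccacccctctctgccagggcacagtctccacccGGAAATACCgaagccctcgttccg

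The Il6 run is chr5:30013055-30013094 on the plus strand, and its match begins 44 bases before the start. The Tnfaip3 run, chr10:19015411-19015550 on the minus strand, ends at the base next to a RefSeq start that lies inside the gene as GENCODE M21 draws it, downstream of its outermost start. The run is therefore within the annotated gene and holds 3 bases of an exon of another Tnfaip3 transcript, and a further RefSeq start of the gene is not shown. The Nfkbia run is chr12:55492652-55492873 on the minus strand and that of Saa3 is chr7:46715840-46715878 on the minus strand. The Cxcl1 run is chr5:90891141-90891199 on the plus strand and that of Icam1 is chr9:21015772-21015879 on the plus strand. GGNNNTTCC was present in a window of 6 of the 7 genes, all but Lif, and in 15.7% of all 32851 windows of this length in the table. Tnfaip3 had a window for each of its RefSeq starts and was counted once. Counts by gene thus stand beside shares by window, here and below. The longer consensus was in a window of Cxcl1, Il6, Nfkbia and Tnfaip3, 4 of 7 genes, and in 3.9% of all windows. The AP-1 sequence TGANTCA, bound by FOS and JUN dimers, was in a window of Il6, Tnfaip3 and Lif, 3 of 7 genes, beside 6.75% of all windows. TTNNGCAA, a form of the C/EBP sequence, was in those of Il6 and Saa3, 2 of 7 genes, beside 9.56%. The 10 genes were picked as NF-kB targets, so the matches describe them and test nothing. Among the windows with the longer consensus, Tnfaip3 rose, Nfkbia fell, Il6 was higher without passing, and Cxcl1 was near 0.

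Most listed markers of the labelled cell type were abundant enough to test, though no reference cells were compared. Of 12 listed markers of ovarian surface epithelium 9 were tested, among them Wt1, Msln, Upk3b, Krt7 and Krt18, while Krt8, Krt19 and Lhx9 were under the filter. Of the 31-base words of Krt8, 36% occur in another gene, chiefly Krt8-ps, so its value is uncertain. Of the 9, 4 fell with TGFB1 (Krt7, Krt18, Upk3b and Gpm6a, with the Upk3b call lost without any 1 untreated library and its log2 fold change going from -1.51 to -0.96 without TGFB1 replicate 1), and the summed level of the list went from between 1760 and 1873 TPM to between 851 and 1221 TPM. Of 12 leukocyte markers only Cd68, which encodes a lysosomal protein, passed the filter, and it fell (log2 fold change -1.27). The other 11, with the pan-leukocyte gene Ptprc at or below 0.0843 TPM in every library, summed to between 1.56 and 1.92 TPM untreated and between 1.42 and 1.72 TPM treated. Endothelial cells are a known source of Vcam1 and Icam1, and their 8 markers summed to between 1.26 and 1.34 TPM untreated and between 1.92 and 2.42 TPM treated, with Cldn5 at 0 throughout. Among genes known to respond to TGFB1, Ctgf (log2 fold change 2.70, with 19.7% of words shared) and Col1a1 (4.35) rose, and Smad7 (0.29) was not called. TGFB1 replicate 1 stood apart: on the first principal component its score was 46.6, that of replicates 2 and 3 was 20.2 and 18.1, and the range was from -29.9 to -27.1 in the untreated libraries. It was also the treated library farthest from the untreated mean for 5 of the 8 tested genes, and a result is also given without it where that changed a call or moved a log2 fold change by over 1.5 times.

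**Figure D1:**
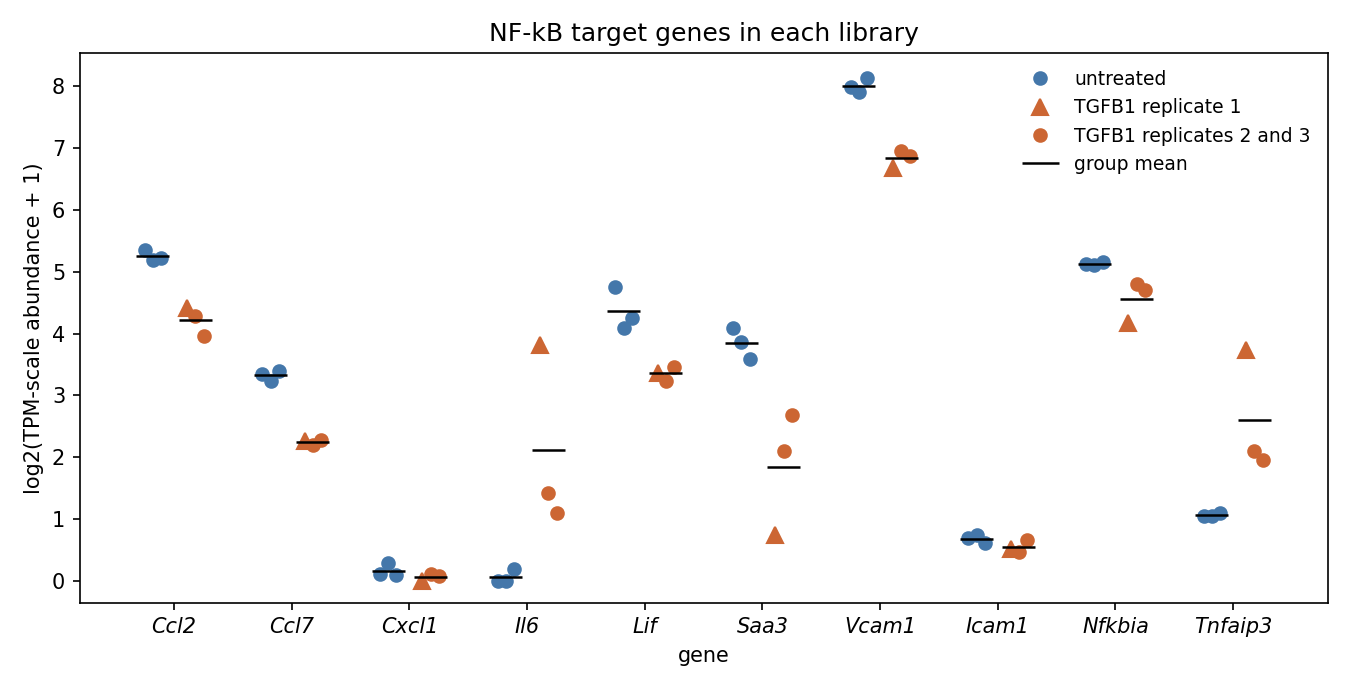
Abundance of the 10 genes in each library, as log2(TPM + 1) on the y axis; each point is a library, triangles are TGFB1 replicate 1 and bars are group means of the plotted values. The treated points of Ccl2, Ccl7, Lif, Saa3, Vcam1 and Nfkbia lie below all untreated points, those of Il6 and Tnfaip3 lie above, and in Il6 and Tnfaip3 the triangle is far above the other treated points.

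Ccl2 encodes MCP-1, the chemokine that recruits monocytes, and spans 82035571 to 82037453 of chromosome 11, plus strand (GENCODE M21 on GRCm38, as for all genes below). It stood at 39.9, 35.7 and 36.6 TPM in the untreated libraries and at 20.4, 18.4 and 14.5 TPM in the treated ones. The groups did not overlap, which was so for 49.8% of all tested genes, and the untreated mean was 2.10 times the treated one. Ccl2 fell by 1.04 on the log2 scale (SE 0.124, adjusted p = 0.00202). A bulk library cannot tell fewer expressing cells from less RNA per cell, here or for any gene below.

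Ccl7 encodes MCP-3, a related monocyte chemokine, and is the next gene named here along the same strand, at 82045712 to 82047525 on chromosome 11. It was at 9.20, 8.40 and 9.48 TPM without TGFB1 and at 3.82, 3.58 and 3.85 TPM with it. All treated values lay within a narrow band below the untreated ones. Ccl7 fell by 1.08 on the log2 scale (SE 0.0900, adjusted p = 0.000638), which is close to the value of Ccl2, although the difference between both genes was not tested. Within a library Ccl2 was between 3.86 and 4.34 times as abundant as Ccl7 without TGFB1 and between 3.78 and 5.34 times with it, so the ranges of the ratio overlapped. None of the 31-base words of either transcript occurs in another annotated gene. Their cluster neighbours were close to silent: Ccl1 and Ccl12 were at 0 in every library, Ccl11 was at no more than 0.180 TPM, and Ccl8 was at 0.580, 0.659 and 0.343 TPM untreated and at 0, 0 and 0.144 TPM treated.

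Cxcl1 encodes KC, the chief neutrophil chemokine of the mouse, at 90891241 to 90893115 on chromosome 5, plus strand. It was at 0.0818, 0.227 and 0.0665 TPM untreated and at 0, 0.0797 and 0.0617 TPM treated. The groups overlapped, and an exact two-sided permutation test of the 3 against 3 libraries gave p = 0.2, where the smallest value that this design allows is 0.1. Its relatives Cxcl2, Cxcl3, Cxcl5 and Cxcl15, which also draw neutrophils, were each at or below 0.139 TPM in every library.

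Il6 encodes interleukin 6, the cytokine that drives acute-phase and STAT3 responses, at 30013114 to 30019981 on chromosome 5, plus strand. It was listed at 0, 0 and 0.144 TPM without TGFB1 and at 13.1, 1.68 and 1.14 TPM with it. All treated libraries were above all untreated ones, but replicate 1 held 9.34 times the mean of replicates 2 and 3. The log2 fold change was 2.05 (SE 0.672, 95% interval 0.45 to 3.64) and did not pass (adjusted p = 0.0587). It did pass with a pseudocount of 0.1 (4.51, adjusted p = 0.0154) and without TGFB1 replicate 3 (2.56, adjusted p = 0.0380). Il6 was farther from passing with a pseudocount of 5 (0.84, adjusted p = 0.142) and with no filter (adjusted p = 0.138). The same was so without any 1 untreated library (adjusted p up to 0.141). Without TGFB1 replicate 1 its mean was under the filter, and with the tested genes held as before, a fit added after the data were seen, Il6 was called at 1.19 (adjusted p = 0.00474).

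Lif encodes leukemia inhibitory factor, an IL-6 family cytokine that acts through the receptor genes Lifr and Il6st, and lies at 4257557 to 4272514 on chromosome 11, plus strand. It was at 26.0, 16.1 and 18 TPM untreated and at 9.34, 8.45 and 9.99 TPM treated. Untreated replicate 1 was the highest, and the treated values were all below the lowest untreated one. Lif fell by 1.01 on the log2 scale (SE 0.172, adjusted p = 0.00657), so it and Il6, cytokines that share the Il6st receptor chain, lay on opposite sides of 0. Osm, the neighbour of Lif in the genome and a cytokine of the same family, was at 0 in every library.

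Saa3 encodes serum amyloid A3, an acute-phase apolipoprotein made outside the liver, at 46711998 to 46715700 on chromosome 7, minus strand. Of its 31-base words 7.56% occur in another gene, chiefly Gm38120. It was at 16.0, 13.6 and 11.1 TPM untreated and at 0.681, 3.29 and 5.46 TPM treated. The groups were apart, and the treated libraries were spread, with replicate 1 the lowest. Saa3 fell by 2.00 on the log2 scale (SE 0.459, adjusted p = 0.0187), and the untreated mean was 4.31 times the treated one. The call was lost when any 1 untreated library was left out or the filter dropped (adjusted p up to 0.0682), and the log2 fold change was -1.45 without TGFB1 replicate 1 (adjusted p = 0.00273) and -1.22 with a pseudocount of 5. The liver forms Saa1 and Saa2 and the gene Saa4 were at or below 0.288 TPM in every library.

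Vcam1 encodes the adhesion molecule that binds the leukocyte integrin of Itga4 and Itgb1, and was the most abundant of the 10 genes in both groups. It lies at 116109949 to 116129688 on chromosome 3, minus strand, and 1.87% of its 31-base words occur in another gene, chiefly the antisense Gm43109. Its level was 254, 240 and 280 TPM untreated and 102, 123 and 116 TPM treated. The lowest untreated value was well above the highest treated one, and the untreated mean was 2.27 times the treated one. Vcam1 fell by 1.18 on the log2 scale (SE 0.0917, adjusted p = 0.000494), with a 95% interval of -1.39 to -0.96. It made up between 66.7% and 71.5% of the summed abundance of the 10 genes in the untreated libraries and between 56.9% and 65.1% in the treated ones.

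Icam1 encodes the ligand of the leukocyte integrins LFA-1 and Mac-1, at 21015985 to 21028817 on chromosome 9, plus strand. It was at 0.620, 0.679 and 0.532 TPM untreated and at 0.429, 0.387 and 0.591 TPM treated, so the groups overlapped (exact two-sided permutation test, p = 0.2, smallest possible 0.1). These values are uncertain for another reason too, since 14.8% of its 31-base words occur in another gene, chiefly the antisense Gm47079, and although the library kit marks strand, whether the quantification used it is not stated. Icam4, on the same stretch, shares 94.7% of its words, chiefly with Gm47079, and was not called (log2 fold change -0.34). Icam5, with 26% shared, chiefly with Gm26592, was at or below 0.385 TPM throughout.

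Nfkbia, the gene of the inhibitor IkB-alpha, lies at 55489410 to 55492647 on chromosome 12, minus strand. It was at 33.8, 33.5 and 34.6 TPM untreated and at 17.0, 26.8 and 25.1 TPM treated. The untreated values were nearly equal and the treated ones were all lower, replicate 1 most so. Nfkbia fell by 0.57 on the log2 scale (SE 0.159, adjusted p = 0.0365), the smallest change among the 6 genes called lower. Without TGFB1 replicate 1 the log2 fold change was -0.37 and was still called (adjusted p = 0.00500). The call was lost when any 1 untreated library was left out, with no filter, and when libraries were rescaled to leave out mitochondrial genes and the 20 most abundant (adjusted p up to 0.106).

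Tnfaip3, the gene of the brake A20, lies at 19000910 to 19015657 on chromosome 10, minus strand. It was at 1.07, 1.08 and 1.14 TPM untreated and at 12.3, 3.30 and 2.88 TPM treated. Every treated library exceeded the untreated ones, and replicate 1 held 3.99 times the mean of the other two. Tnfaip3 rose by 1.53 on the log2 scale (SE 0.448, adjusted p = 0.0415), and by 0.96 without TGFB1 replicate 1 (adjusted p = 0.00285). The call was lost without any 1 untreated library, with no filter, a pseudocount of 5 (0.77), quantile normalization or no intensity trend (adjusted p up to 0.1075). The feedback genes Nfkbia and Tnfaip3 thus differed from untreated in opposite directions, Nfkbia down and Tnfaip3 up.

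**Figure D2:**
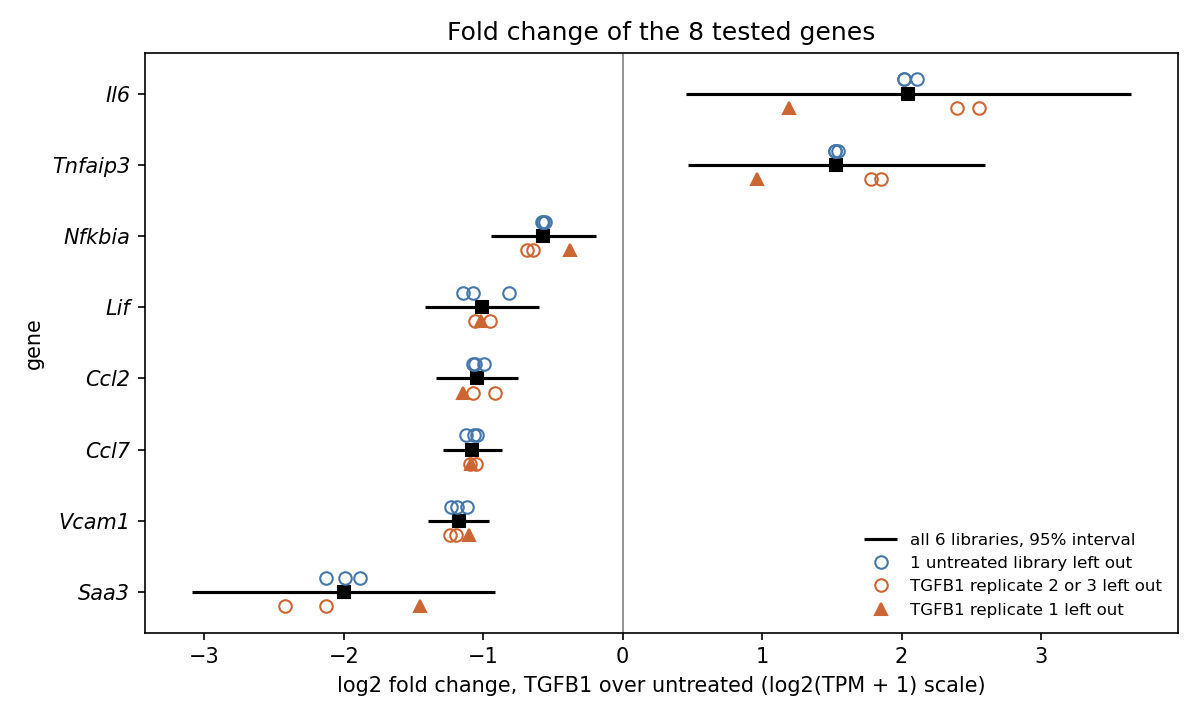
Log2 fold change of the 8 tested genes (x axis, TGFB1 over untreated, log2(TPM + 1) scale) with all 6 libraries (square, line for the 95% interval of limma) and with 1 library left out (circles and triangles, with the triangle of TGFB1 replicate 1 from the fit on the same genes). The triangles of Il6, Tnfaip3, Nfkbia and Saa3 lie nearer to 0 than the squares, at 1.19, 0.96, -0.37 and -1.45, while Ccl7, Lif, Ccl2 and Vcam1 hardly shift.

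Since TPM is corrected for length, the levels can be ordered between genes. Among untreated means the order from high to low was Vcam1, Ccl2, Nfkbia, Lif, Saa3, Ccl7, Tnfaip3, Icam1, Cxcl1 and Il6, and of neighbours in that order only Cxcl1 and Il6 overlapped in their values. With TGFB1 the order was Vcam1, Nfkbia, Ccl2, Lif, Tnfaip3, Il6, Ccl7, Saa3, Icam1 and Cxcl1. There Nfkbia and Ccl2 overlapped, as did each neighbouring pair from Lif to Saa3, so the order in the middle of that list is not settled. Tnfaip3 and Il6, near the bottom without TGFB1, had treated means of 6.17 ± 5.34 and 5.32 ± 6.78 TPM (SD, n = 3), with an SD about as large as the mean.

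The genes whose profile was most like that of Tnfaip3, by the root mean square difference over the 6 libraries of log2(TPM + 1) less its untreated mean, were Serpina3g (0.159), H2-Ab1 (0.184) and Htr2b (0.186). Serpina3g encodes a serine protease inhibitor, and 28.4% of its 31-base words occur in other genes. H2-Ab1 encodes an MHC class II chain and Htr2b a serotonin receptor. Each was at or below 0.215 TPM in every untreated library and highest in TGFB1 replicate 1, at 6.44, 5.26 and 6.59 TPM in that order. These genes passed the abundance filter only through the treated libraries, so they had to differ to be compared. Their treated means were 26.7, 66.3 and 36.9 times the untreated ones, beside 5.63 times for Tnfaip3. The likeness therefore holds on the log2(TPM + 1) scale only. Most like Saa3 were the galectin gene Lgals2 (0.166), the interferon regulatory factor gene Irf5 (0.208) and the carboxypeptidase gene Cpz (0.24). All of these were lowest in TGFB1 replicate 1, and Irf5 went from 52.0, 47.7 and 40.5 TPM to 4.25, 18.5 and 18.1 TPM.

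Other genes of the pathway came from 12 lists, with 188 genes beside the 10, also chosen with earlier results known. Of these, 116 were tested, 18 were called higher (15.5%) and 26 lower (22.4%), beside 15.8% and 14.6% of all tested genes, and their median log2 fold change was -0.0274. With untreated replicate 1, 2 or 3 left out, 17, 17 and 13 were called lower, and lower calls over all tested genes went down as well, to 9.21%, 9.14% and 7.45%. Of the called genes Tlr2, Ccl9 and Ccl17 passed the filter only through the treated libraries and Itgb2 only through the untreated ones, so these 4 had to differ to be tested. Tlr2 and Ccl9 were under the filter without TGFB1 replicate 1. Among the 5 NF-kB subunit genes none was called higher. Relb, the subunit of the noncanonical branch, fell from 15.6, 15.4 and 14.1 TPM to 5.90, 8.82 and 8.65 TPM (log2 fold change -0.89, adjusted p = 0.00601). Nfkb2, its partner's precursor, fell by 0.33 on the log2 scale, a call lost without untreated replicate 2 or 3 or TGFB1 replicate 2 or 3 (adjusted p up to 0.0762). Of the 31-base words of Nfkb2, 16.3% are shared. Rela, the main activating subunit, was at 42.8, 45.6 and 44.3 TPM and at 41.2, 47.4 and 45.1 TPM and was not called (log2 fold change 0.0083), and neither were Nfkb1 (-0.15) and Rel (-0.10).

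Of 13 tested genes of IkB proteins and kinases 2 were called in each direction. Map3k14, the kinase NIK of the noncanonical branch, rose from 5.11, 4.77 and 5.14 TPM to 14.0, 8.15 and 8.46 TPM (log2 fold change 0.86, adjusted p = 0.0173). Bcl3, a nuclear IkB family member, fell from 144, 136 and 138 TPM to 38.3, 88.9 and 90.7 TPM (-1.03, adjusted p = 0.0458), and was at -0.63 without TGFB1 replicate 1. Both calls were lost when the filter was dropped and without any 1 untreated library (adjusted p up to 0.1205). Tbk1 fell by 0.31 on the log2 scale, while Tab2 rose by 0.19, a call lost when any 1 of the 6 libraries was left out. The IkB kinase genes Chuk (0.10), Ikbkb (0.01) and Ikbkg (0.01) were not called. Of 9 genes that edit ubiquitin chains or restrain the pathway, Traf3 (0.63, adjusted p = 0.00326) and Rnf11 (0.58) rose and none fell. TRAF3 is known for holding NIK at a low level.

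Of 20 tested receptor and adaptor genes 3 rose and 5 fell. Tnfrsf1a, the main TNF receptor gene, fell from 240, 241 and 236 TPM to 99.0, 142 and 148 TPM (log2 fold change -0.90, adjusted p = 0.00580), while Tnfrsf1b, the other TNF receptor gene, rose by 0.48. Tlr2, a sensor of bacterial lipopeptides, rose from 0.398, 0.266 and 0.436 TPM to 3.36, 1.62 and 1.71 TPM (1.2, adjusted p = 0.00995, and 0.0227 with no filter). Tlr4, the endotoxin sensor, fell by 0.46 and the adaptor Myd88 by 0.45 on the log2 scale. Ltbr (-0.24), Irak1 (-0.22) and Traf2 (0.29) passed narrowly and lost the call when some single libraries were left out, as did Tlr4. The classic inducers were absent or nearly so: Il1b was at 0 in every library, Tnf was above 0 only in untreated replicate 1 (0.0431 TPM), and Il1a was at or below 0.270 TPM. Of the 3 tested inducing ligands Il18 (-0.69) and Tnfsf12 (-0.96) fell, and 47.4% of the 31-base words of Tnfsf12 are shared.

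**Figure D3:**
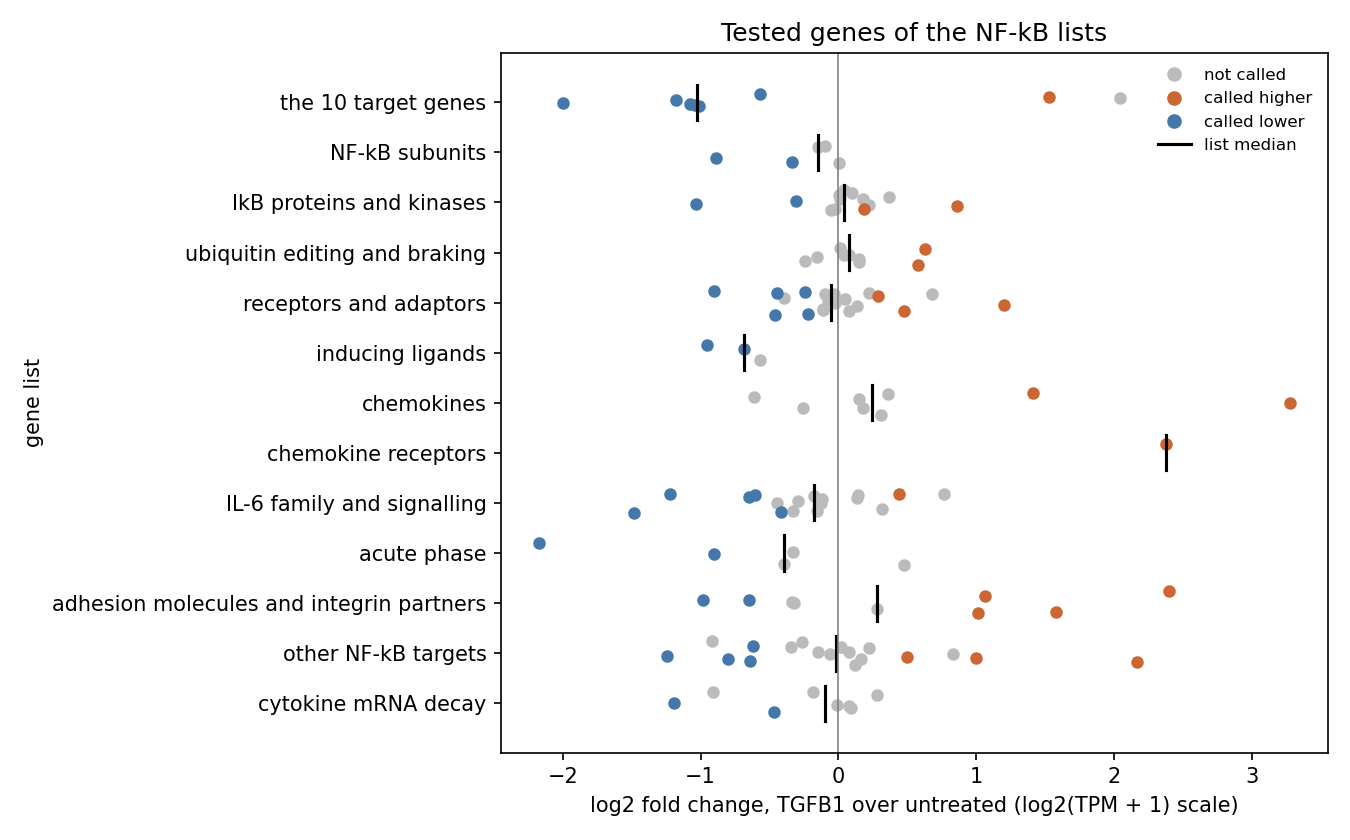
Log2 fold change (x axis, log2(TPM + 1) scale) of each tested gene of the 10 target genes and of the 12 pathway lists (rows); each point is a gene, coloured by its limma call, and vertical bars are list medians. The median of the 10 target genes, over the 8 tested, is -1.03, and the pathway lists spread to both sides of 0, with Ccl17 at 3.28 the farthest right and Hp at -2.18 the farthest left.

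Of 27 other chemokine genes only 8 were abundant enough to test, and 2 rose while none fell. Both that rose passed the filter only through the treated libraries, while genes with higher untreated values, such as Ccl20 (means of 1.48 and 0.480 TPM), were under it and not tested, so the count gives no direction for chemokines. Ccl17, a chemokine for T cells, rose from 1.91, 0.327 and 0.679 TPM to 46.6, 11.5 and 9.0 TPM (log2 fold change 3.28, adjusted p = 0.00854), and by 2.58 without TGFB1 replicate 1. Ccl9 rose from 0.113, 0.222 and 0.512 TPM to 4.62, 1.76 and 1.5 TPM (1.41), a call lost without untreated replicate 1 or 2 (adjusted p up to 0.0671). Both went the opposite way from Ccl2 and Ccl7, though with their low untreated values Ccl17 and Ccl9 could be tested only if higher. Cxcl12, the stem cell and lymphocyte chemokine, was at 106, 107 and 99.1 TPM and at 107, 122 and 118 TPM and was not called. Of 12 chemokine receptor genes only Ackr4, a scavenging receptor that does not signal through G proteins, was tested, and it rose from 13.7, 17.7 and 12.7 TPM to 45.8, 99.5 and 111 TPM (2.38, adjusted p = 0.00309), and by 2.77 without TGFB1 replicate 1. The receptor of CCL2, Ccr2, was at or below 0.203 TPM in every library.

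Of 17 tested genes of IL-6 family signalling 1 rose and 5 fell. Il6ra, the ligand-binding chain of the IL-6 receptor, fell from 9.17, 8.20 and 7.83 TPM to 2.43, 3.18 and 3.54 TPM (log2 fold change -1.22, adjusted p = 0.00146). Socs3, a feedback inhibitor switched on by STAT3, fell from 35.7, 43.5 and 40.4 TPM to 9.05, 16.4 and 16.7 TPM (-1.48, adjusted p = 0.00426). Osmr (-0.65), Stat3 (-0.61) and Il11ra1 (-0.42) fell too, the first and second losing the call without any 1 untreated library, and 57.7% of the words of Il11ra1 being shared. Ptpn11, the phosphatase SHP2, rose by 0.44 on the log2 scale, and the shared chain Il6st (-0.13) and Lifr (-0.45) were not called. Il6 itself was higher in the same libraries in which Il6ra and Socs3 were lower.

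**Figure D4:**
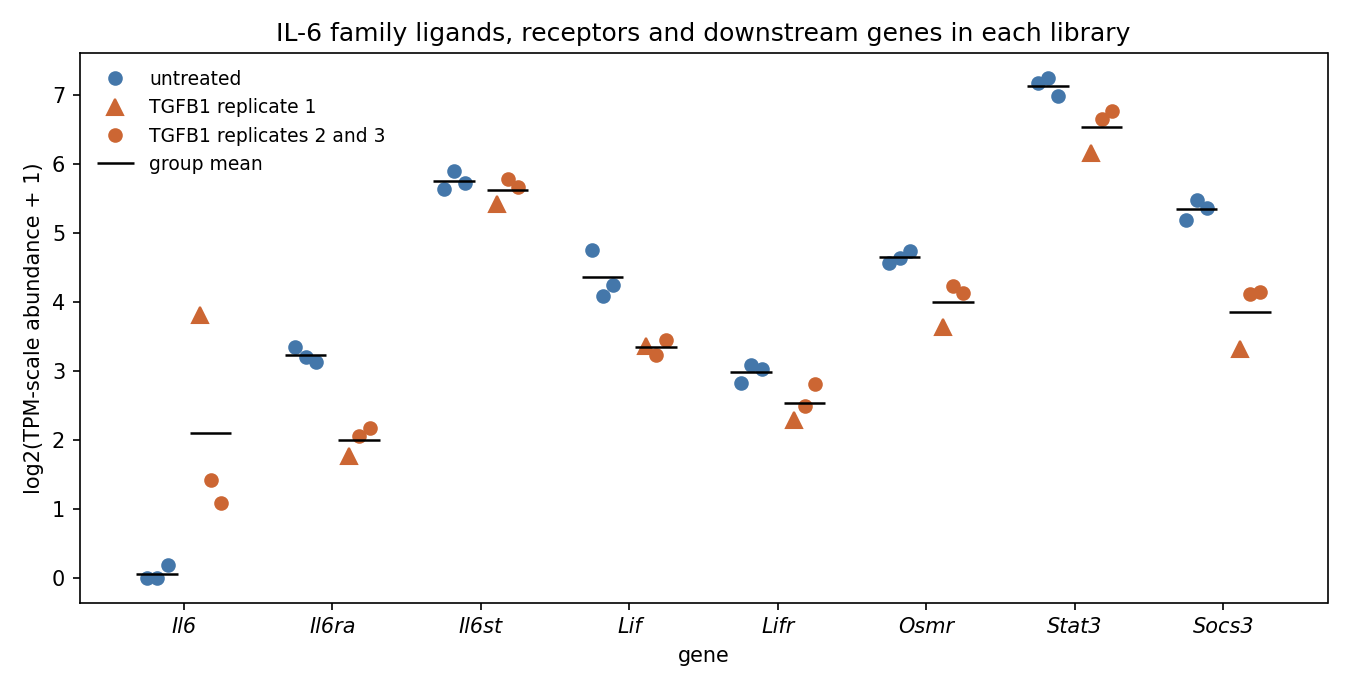
Abundance of Il6, Lif and genes of their receptors and signalling in each library, as log2(TPM + 1) on the y axis, with symbols as in the plot of the 10 genes. The treated points of Il6 lie above the untreated ones, while those of Il6ra, Lif, Osmr, Stat3 and Socs3 lie below and those of Il6st overlap.

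Among 5 tested acute-phase genes 2 fell and none rose. Hp, which encodes the hemoglobin-binding haptoglobin, fell with Saa3, from 9.73, 12.1 and 8.85 TPM to 0.588, 2.39 and 1.80 TPM (log2 fold change -2.18, adjusted p = 0.00268). Cebpb, a transcription factor of acute-phase genes, fell by 0.90 on the log2 scale and was at -0.59 without TGFB1 replicate 1. The call was lost without any 1 untreated library (adjusted p up to 0.102), and 19.6% of the words of Cebpb are shared. Of 9 tested adhesion and integrin genes 4 rose and 2 fell. While Vcam1 fell, the adhesion molecules Mcam (25.4, 19.8 and 21.6 TPM to 181, 105 and 93.8 TPM, log2 fold change 2.40, adjusted p = 0.00114), Alcam (1.58) and Jam3 (1.01, with 32.2% of words shared) rose. Itgb1, the beta chain of the Vcam1 receptor, rose by 1.06, and its alpha chain Itga4 was at or below 0.230 TPM in every library. Cd47 fell by 0.99 and the leukocyte integrin chain Itgb2 by 0.65 on the log2 scale, the latter call lost without TGFB1 replicate 3 (adjusted p = 0.0568), and without untreated replicate 2 or 3, or with a filter at a mean of 5 TPM, Itgb2 was not tested.

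Of 18 other tested NF-kB target genes 3 rose and 4 fell. Ptgs2, which encodes COX2, rose from 109, 108 and 120 TPM to 779, 426 and 396 TPM (log2 fold change 2.17, adjusted p = 0.00161), the stress gene Ier3 rose by 1.0 and Gadd45b by 0.50. Irf1, an interferon response factor, fell from 97.5, 83.1 and 83.9 TPM to 23.2, 44.2 and 47.4 TPM (-1.24, adjusted p = 0.0127), a call lost without untreated replicate 1. Tnfaip2 (-0.80), the cytokine RNA nuclease gene Zc3h12a (-0.64) and Sod2 (-0.62, with 26.7% of words shared) fell. The calls of Gadd45b, Tnfaip2 and Zc3h12a were lost without at least 1 single untreated library. Among 8 genes of cytokine RNA decay 2 fell: Zfp36, which encodes tristetraprolin, an RNA-binding protein known for destabilising cytokine transcripts, went from 87.1, 78.7 and 78.4 TPM to 21.8, 44.9 and 43.4 TPM (-1.19, adjusted p = 0.0153), and Zfp36l2 was at -0.47. The Zfp36 call was lost without untreated replicate 1 or 3 and that of Zfp36l2 without untreated replicate 2 or 3 or TGFB1 replicate 2 or 3.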

How the data were processed

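RNA abundance was compared between 3 untreated and 3 TGFB1-treated libraries. kallisto 0.44.0, sleuth 0.30.0 and the build GRCm38 are listed, without roles, in the submitters' processing notes. For annotation, strand use and the summing of transcripts, the steps were not stated in those notes or the labels. The authors deposited a TPM-scale signal per gene. Its column totals, 983434 to 1026702, differ and some exceed those of plain TPM. Column names carried the group and number of the sample titles, and 0 columns were left unused. Values were fitted as log2(TPM + 1) with limma 3.58.1 in R 4.3.3 (eBayes with an intensity trend, two-sided, no covariate) for the 12257 genes that averaged 1 TPM or more, Benjamini-Hochberg adjusted over all of them. Fold changes on this scale understate those of low genes. The fit was tested on simulated data.

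The 10 members and the gene lists were chosen with earlier results of these data known. Named genes are the members, the called genes of each list with their cluster neighbours, and, for the called members with the largest rise and fall, the 3 genes with the most similar profile. A few uncalled list genes are named for their role. One listed gene is not reported here. Coordinates are from GENCODE M21, which held 35022 of the 35688 gene IDs. Words of 31 bases shared with other M21 genes, on either strand, and promoter matches were computed with Python 3.11.15, with promoter sequences from RefSeq. The 16 other settings tried are pseudocounts of 0.1 and 5, no filter or one at a mean of 5 TPM, 3 other scalings, no trend, repeated rows removed, a replicate block and each library left out.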

Additional observations from a re-analysis of the deposited data

How the results depend on the processing

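No log2 fold change that was followed changed sign, and the count of the 10 genes called lower was 6 in 11 of the 16 other settings, 5 after rescaling and 4 with no filter or without any 1 untreated library. The 1 higher call, Tnfaip3, became 0 with no filter, no intensity trend, a pseudocount of 5 or quantile normalization. The count was also 0 without any 1 untreated library, and with a filter at a mean of 5 TPM, which leaves Tnfaip3 untested. With a pseudocount of 0.1 or without TGFB1 replicate 3 there were 2, since Il6 passed. There were also 2 without TGFB1 replicate 1 on the same tested genes, a setting chosen after seeing the data. Leaving out 1 library gave 0 to 2 higher and 4 to 6 lower calls among the 10 genes, and 13 to 29 lower and 14 to 20 higher calls among the pathway genes. Over all tested genes the same fits called 9.13% to 16.3% higher and 7.45% to 15.9% lower. The lower count of pathway genes was least without untreated replicate 3.

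The labels number the libraries 1 to 3 in each group. Deviations from the group means of same-numbered libraries correlated over genes at 0.198, 0.153 and -0.0384, and untreated replicate 2 correlated more with TGFB1 replicate 3 (0.184) than with its own number, so the numbers were not taken as pairs. With a replicate block 1 of the 10 genes was called higher and 6 lower, and 19 and 30 of the pathway genes, while Tab2 and Tnfaip2 were no longer called (adjusted p = 0.0620 and 0.0536). The unknown depth limits Cxcl1, Icam1 and untreated Il6 most, since values near 0 may rest on few reads.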

Other observations

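Some listed genes were higher in TGFB1 replicate 1 than in every other library, and are given as values, chosen after they were seen. Cd40, a TNF family receptor known to activate the noncanonical branch of NF-kB, was at 2.52 TPM there, at 0.188 and 0.262 TPM in TGFB1 replicates 2 and 3, and at or below 0.138 TPM untreated. Csf1, which encodes the macrophage growth factor, was at 239 TPM there, at 87.1 and 81.2 TPM in TGFB1 replicates 2 and 3 and between 57.0 and 72.6 TPM untreated, and was not called. Il11, an IL-6 family cytokine gene, was under the filter, at 1.43 TPM there, at 0.518 and 0.771 TPM in replicates 2 and 3, and at 0.579, 0.214 and 0.227 TPM untreated.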
